A study of Mus musculus with 30 samples.

Results

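Stool bacteria of female wild-type (WT) mice were compared between the end of a period of shared cages and the end of the separation that followed it. The members are the 10 WT libraries that the labels place at these times, of 30 libraries in the series: libraries 16 to 20 after co-housing and libraries 26 to 30 after the re-separation period, 5 at each time. Female WT mice and Gpr15l-deficient mice (KO), which lack a peptide secreted by gut and skin epithelium that binds the lymphocyte receptor GPR15, were put at weaning, at 4 weeks of age, into cages that held both genotypes and 2 to 7 mice each. The co-housed WT mice had lived there for 4 to 5 weeks, and the re-separated WT mice had then been kept apart from KO mice for a further 6 weeks. A stretch of the 16S rRNA gene (V4), which all bacteria carry, was amplified from stool DNA and sequenced. The comparison asks how the stool bacteria of WT mice differ once the animals no longer share cages with KO mice. No WT group that stayed in mixed cages or was never co-housed to the later age is among the 30 libraries, so the end of cage sharing and the 6 added weeks of age cannot be told apart. Cage, litter and mouse identity across times are not among the labels. P-values therefore measure only the spread between samples, which the main test estimated over all 30 libraries.

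Mice eat faeces, so animals that share a cage exchange gut bacteria, and stool communities of cage mates come to resemble each other. Mouse stool is dominated by Bacteroidales, which break down plant and mucin polysaccharides, and by Clostridia of the orders Lachnospirales and Oscillospirales, strict anaerobes of which many ferment to short-chain fatty acids such as butyrate. Smaller groups live close to the host: Helicobacter and Mucispirillum are spiral or curved, motile bacteria of the mucus layer, and Mycoplasma lacks a cell wall. Shares of reads add up to a fixed total, so a larger share of one taxon lowers the shares of the others whatever their cell numbers.

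Time and library set changed together in this comparison. Of the 3697 rows of the table, each a sequence variant with a taxon name, 485 were detected in the 20 libraries of weaning and co-housing, 468 in the 10 of re-separation, and 0 in both sets. Rows were therefore summed by genus and by family. The co-housed WT libraries held 20379 to 38361 reads and the re-separated WT libraries 39735 to 73776, so depth differed between the times as well. Reads with an entry at genus level made up 89.1% of bacterial reads in the co-housed and 95.9% in the re-separated WT libraries. These include the reads called unnamed Muribaculaceae below, whose genus entry repeats the family name. Such reads averaged 10.8% in the co-housed and 18.7% in the re-separated group. Of the genera, 77 had reads in the co-housed group, 76 in the re-separated group and 68 in both, and 41 had reads in all 10 libraries. Mitochondrial reads, which were left out of all shares, made up 0.608% ± 0.317 of reads after co-housing and 0.161% ± 0.126 after re-separation (SD, n = 5), and their part in the results was not tested. Chloroplast reads, reads without a kingdom and the skin genera Staphylococcus, Cutibacterium, Corynebacterium and Micrococcus had 0 reads in both groups, which allows up to 3 counts per library.

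Library 19, labelled as taken after co-housing, stood apart from the rest of its group. Its mean Bray-Curtis distance, which runs from 0 for equal genus shares to 1 for no shared genus, was 0.463 to the other co-housed libraries and 0.237 to the re-separated ones. The other co-housed libraries lay at 0.278 to 0.302 from their own group, counting library 19. The library nearest to library 19 was library 26 of the re-separated group, at a distance of 0.141. Library 19 also had the lowest mitochondrial share of its group, 0.0687% against 0.587% to 0.829% in the other 4. It was the shallowest of the 10 libraries. Over the other groups, its mean distance was 0.254 to the WT libraries at weaning, 0.242 to the re-separated KO libraries and 0.472 to the co-housed KO libraries. By these distances library 19 thus lay nearer to the re-separated libraries than to its own group. Not all genera did so: its shares of Pseudomonas (0.133%) and Bilophila (0.0344%) lay above those of all re-separated libraries. Whether the label of library 19 is right was not tested. Like the other co-housed libraries, it had reads only in rows of the weaning and co-housing set. It was singled out after its values were seen, from the same shares and distances that the tests use. P-values without it are therefore descriptive only. The main results that turn on it are given with and without it.

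**Figure D1:**
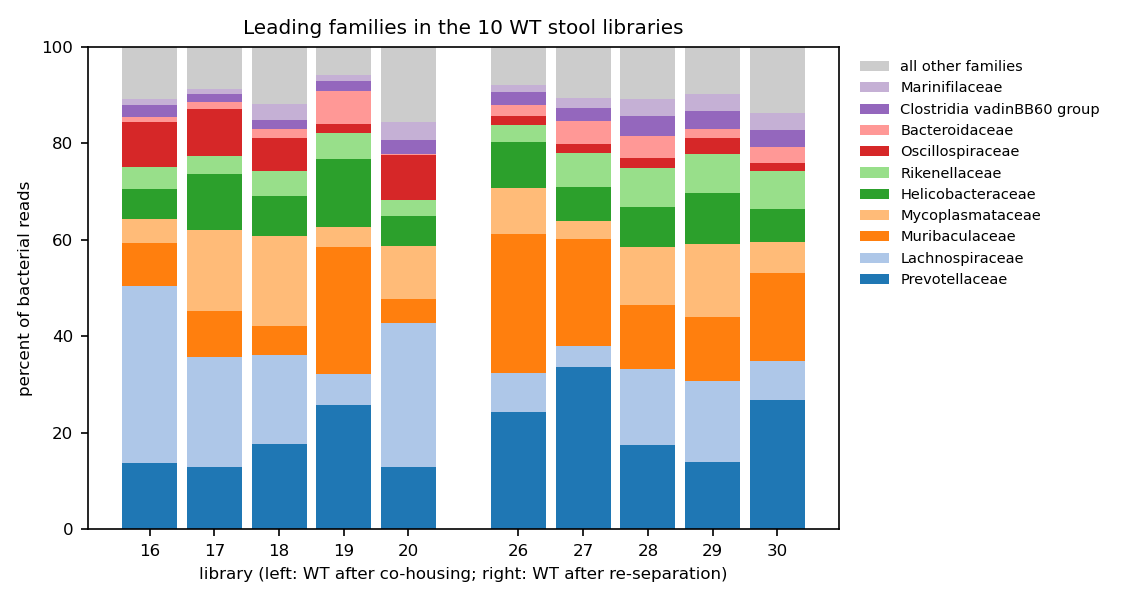
Percent of bacterial reads of the 10 leading families in each WT library, stacked from 0 to 100, with co-housed libraries on the left and re-separated libraries on the right. Library 19 shows the broad Muribaculaceae and Prevotellaceae bands and the narrow Lachnospiraceae band (6.39%) seen in several re-separated libraries.

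Few taxa passed the test. Of 71 genera tested, 1 (1.41%) changed between the times (edgeR's quasi-likelihood test, Benjamini-Hochberg adjusted p under 0.05), and 9 (12.7%) had an unadjusted p under 0.05, of which 5 (7.04%) were higher and 4 (5.63%) lower after re-separation. The genus that changed was Pseudomonas, which fell. More genera passed when only the compared groups were fitted: Bilophila, Gastranaerophilales, Parabacteroides, unclassified Oscillospiraceae and unclassified Rhodospirillales. Of 35 families tested, 2 (5.71%) changed: Pseudomonadaceae fell and Rhodospirillales without a family name rose, 1 (2.86%) each way. The mean share was higher after re-separation for 26 of the 71 genera and lower for 45. The shares of the groups did not overlap for 4 genera (5.63%), of which Pseudomonas, Bilophila and UCG-009 were lower (4.23%) and unclassified Rhodospirillales was higher (1.41%), and for 3 families (8.57%): Pseudomonadaceae, unclassified Rhodospirillales and Butyricicoccaceae, of which the second was higher (2.86%) and the others lower (5.71%) after re-separation. Without library 19, which was singled out by its genus shares, the groups did not overlap for 18 of the 71 genera (25.4%). Of these, 7 were higher and 11 lower, while Pseudomonas remained the 1 genus called.

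Pseudomonas, a genus of aerobic bacteria found in water and soil and common in laboratory reagents, held 0.0190%, 0.0751%, 0.0631%, 0.133% and 0.102% of bacterial reads in co-housed libraries 16 to 20. It had 0 reads in all 5 re-separated libraries, although these were deeper. Set against a floor of 3 counts per library, the share was at least 13.7-fold lower after re-separation, and the fitted log2 fold change, which depends on the prior count, had an adjusted p of 0.00256 (edgeR). No count equal to 1 was listed in the 10 libraries, so if low counts were removed earlier this bound would be too high, and floors cover counting error only. The same step was seen in KO mice, with Pseudomonas in 5 of 5 co-housed and 0 of 5 re-separated libraries. At weaning, in the same library set as co-housing, 4 of 5 KO and 3 of 5 WT libraries held it. The list of reagent genera, to which it belongs, summed to 0.0863% ± 0.0436 in co-housed WT libraries (SD, n = 5) and had 0 reads in all 10 re-separated libraries of both genotypes. The part of reagent DNA in this result was not tested.

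Rhodospirillales, an order of Alphaproteobacteria, was represented by reads with no family or genus name. These had 0 reads in the 5 co-housed libraries and made up 0.00951%, 0.0697%, 0.0195%, 0.0154% and 0.0302% in re-separated libraries 26 to 30. The groups did not overlap, and the mean share was at least 2.70-fold higher after re-separation, against a floor of 3 counts per library. Among families the adjusted p was 0.00908, and among genera, where the same reads were tested beside more features, it was 0.0610 (edgeR). In KO mice the same reads were found in 0 of 5 co-housed and 4 of 5 re-separated libraries. Weaning libraries, which belong to the set of the co-housed ones, held them in 0 of 5 KO and 1 of 5 WT mice, the latter with 2 reads. The part of the library set in this result was not tested. By DESeq2 the family did not pass (adjusted p = 0.0595), and with every library thinned to the smallest it fell under the filter on low counts and was not tested.

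Bacteroidales, the order of polysaccharide degraders, had the larger mean share after re-separation, but library 19 placed the groups on top of each other. The order made up 29.5%, 29.0%, 34.1%, 66.4% and 25.6% of reads in co-housed libraries 16 to 20 and 60.5%, 72.2%, 47.9%, 41.6% and 60.8% in re-separated libraries 26 to 30. Library 19 lay above 4 of the 5 re-separated libraries, whereas the other 4 co-housed libraries lay below all of them. The means were 36.9% ± 16.7 and 56.6% ± 12.0 (SD, n = 5), and 29.5% ± 3.49 without library 19. Of the order's 11 tested genera, 0 were called (edgeR; 1 had an unadjusted p under 0.05) and 11 had the higher mean share after re-separation, or 10 without library 19. Their median log2 fold change was 0.75, against -0.27 over all 71 genera. As 1 unit among 27 orders, Bacteroidales had a log2 fold change of 1.00 ± 0.54 (SE; adjusted p = 0.270, edgeR), and 1.46 ± 0.56 without library 19 (adjusted p = 0.0559).

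**Figure D2:**
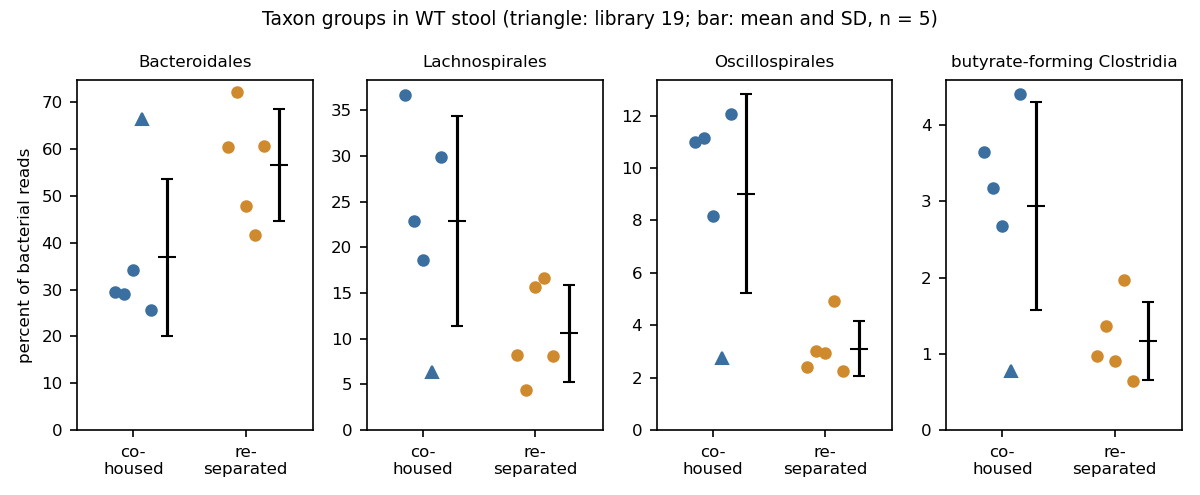
Percent of bacterial reads of Bacteroidales, Lachnospirales, Oscillospirales and the list of butyrate-forming Clostridia in each WT library, with 1 point per library and the mean with its SD beside each group (n = 5). The triangle is library 19, which lies within the range of the re-separated libraries in all 4 panels.

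Within Bacteroidales the leading genus was Prevotellaceae UCG-001, a relative of Prevotella. It held 13.5%, 11.9%, 17.5%, 23.8% and 12.5% in the co-housed libraries and 23.2%, 29.0%, 16.8%, 13.4% and 24.7% in the re-separated ones. The groups overlapped, with a log2 fold change of 0.62 ± 0.52 (SE; adjusted p = 0.490, edgeR), and of 1.04 ± 0.51 without library 19 (adjusted p = 0.196). Unnamed Muribaculaceae, members of a family abundant in mice and known for carbohydrate breakdown, held 8.75%, 9.23%, 5.89%, 25.5% and 4.88% in the co-housed libraries and 27.7%, 21.8%, 13.0%, 13.2% and 17.7% in the re-separated ones. Only library 19 made these groups overlap. The log2 fold change was 0.88 ± 0.59 (SE; adjusted p = 0.490) with all libraries and 1.83 ± 0.58 (adjusted p = 0.0512) without library 19, where the co-housed mean was 7.19%. At the level of families, Muribaculaceae had an adjusted p of 0.255 with all libraries (edgeR). Without library 19, which was picked from such shares, the log2 fold change was 1.71 ± 0.55 (SE; adjusted p = 0.0415, edgeR).

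Bacteroides, which degrades a wide range of plant and host glycans, showed the same dependence. It held 1.05%, 1.61%, 1.84%, 6.81% and 0.322% in co-housed mice and 2.29%, 4.70%, 4.51%, 1.89% and 3.27% after re-separation. Its log2 fold change was 0.51 ± 0.70 (SE; adjusted p = 0.680, edgeR) with library 19 and 1.86 ± 0.70 (adjusted p = 0.0774) without it. Parabacteroides, of the family Tannerellaceae, held 0.0408% to 0.761% in co-housed mice and 0.537% to 2.67% after re-separation, with library 19 again the highest of its group. Its log2 fold change was 2.10 ± 0.94 (SE; adjusted p = 0.299, edgeR), and 3.22 ± 1.05 without library 19 (adjusted p = 0.0512). Tannerellaceae as a family had an adjusted p of 0.184 with all libraries (edgeR). It passed when library 19, picked from its values, was left out (log2 fold change 3.44, edgeR adjusted p = 0.0474). Alistipes, a bile-tolerant genus of Rikenellaceae, averaged 3.37% ± 0.679 and 5.08% ± 1.83 (SD, n = 5). Odoribacter, a producer of short-chain fatty acids, averaged 2.15% ± 1.31 and 2.77% ± 1.03. Both overlapped between the times, with log2 fold changes of 0.75 and 0.62 that did not pass.

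Clostridia of the order Lachnospirales had the smaller mean share after re-separation, and did not pass the test. The order made up 36.7%, 22.9%, 18.6%, 6.39% and 29.8% of reads in the co-housed libraries and 8.23%, 4.36%, 15.7%, 16.6% and 8.12% in the re-separated ones. The means were 22.9% ± 11.5 and 10.6% ± 5.31 (SD, n = 5). Without library 19 the lowest co-housed library, at 18.6%, lay above the highest re-separated library, at 16.6%. Of its 16 tested genera 0 were called (edgeR; 1 had an unadjusted p under 0.05) and 15 had the lower mean share after re-separation. Of all 71 genera 45 had the lower mean share, and the median log2 fold change was -0.27. The median of the 16 was -0.79, and -0.76 without the 1 genus that had 0 reads after re-separation. The largest of them, the Lachnospiraceae NK4A136 group, known as butyrate producers, held 24.4%, 10.6%, 11.2%, 3.86% and 23.6% in co-housed mice and 4.33%, 2.28%, 12.9%, 9.62% and 5.14% after re-separation. Its groups overlapped, with a log2 fold change of -0.76 ± 0.73 (SE; adjusted p = 0.559, edgeR). Lachnospiraceae without a genus name averaged 4.36% ± 2.83 and 1.79% ± 0.848 (SD, n = 5; log2 fold change -0.97 ± 0.79, edgeR adjusted p = 0.490).

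Oscillospirales, the other large order of Clostridia, separated 4 of the 5 co-housed libraries from the re-separated ones. It made up 11.0%, 11.1%, 8.19%, 2.74% and 12.1% in co-housed mice and 2.42%, 3.00%, 2.95%, 4.92% and 2.26% after re-separation, with library 19 inside the re-separated range. Of its 14 tested genera 0 were called (edgeR; 1 had an unadjusted p under 0.05) and 12 had the lower mean share after re-separation. Of all 71 genera 45 had the lower mean share. The median log2 fold change was -1.13 in the order and -0.27 over all genera. Oscillospiraceae without a genus name held 5.26%, 4.41%, 3.19%, 0.629% and 4.39% in co-housed mice and 0.565%, 0.569%, 0.711%, 1.20% and 0.617% after re-separation. The log2 fold change of -1.95 ± 0.79 (SE) had an adjusted p of 0.225 in the fit over all 6 groups and passed when only the compared groups were fitted (adjusted p = 0.0241). Colidextribacter held 0.913% to 2.63% and 0.665% to 1.21%, and Oscillibacter, a valerate producer, 0.314% to 2.09% and 0.176% to 0.835%. Neither passed.

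The list of butyrate-forming Clostridia takes genera from both orders by name only, and butyrate was not measured. It averaged 2.94% ± 1.36 of reads after co-housing and 1.17% ± 0.512 after re-separation (SD, n = 5). Much of this came from Oscillibacter, at 1.39% and 0.455%, Roseburia, at 0.576% and 0.178%, and the [Eubacterium] siraeum group, at 0.431% and 0.349%. The Lachnospiraceae NK4A136 group is not on the list. The 8 tested genera of the list all had the lower mean share after re-separation, with a median log2 fold change of -1.32. Of these, 0 were called (edgeR; 0 had an unadjusted p under 0.05). Of all 71 genera 45 had the lower mean share, and the median was -0.27. The [Eubacterium] siraeum group had a log2 fold change of -0.03 in edgeR, and its co-housed mean rested on library 20 (1.93%). By limma-voom it was called higher after re-separation (log2 fold change 4.16, adjusted p = 0.0487). Roseburia, a flagellated butyrate producer, held 1.56%, 0.446%, 0.457%, 0.0835% and 0.331% in co-housed mice and 0.0784% to 0.288% after re-separation. Library 16 was the highest, but all co-housed libraries other than library 19 lay above the re-separated range. Only library 19 made the Roseburia groups overlap. The Clostridia vadinBB60 group, known mainly from 16S sequences, lay on the other side and held 1.62% to 2.76% in co-housed mice and 2.75% to 4.11% after re-separation, and the groups met only in libraries 20 and 27. Its log2 fold change was 0.90 ± 0.84 (SE; adjusted p = 0.559, edgeR).

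**Figure D3:**
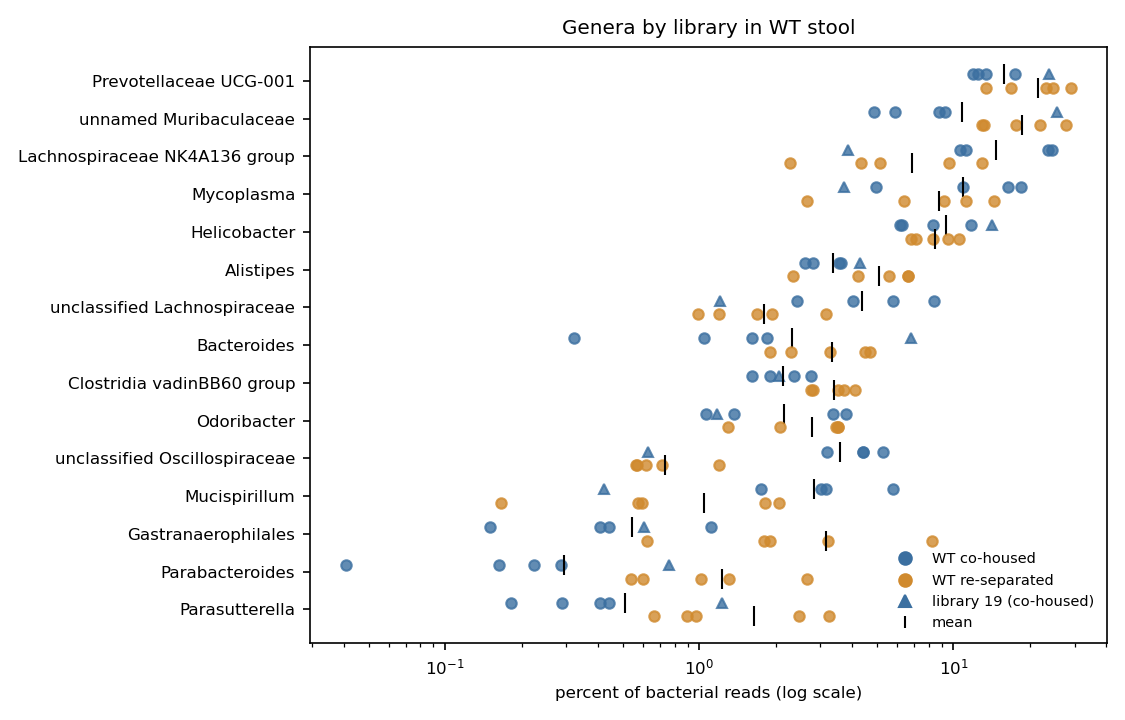
Percent of bacterial reads, on a log scale, of the 12 genera with the largest mean share and of Gastranaerophilales, Parabacteroides and Parasutterella in each WT library. Points are libraries, the black bars are group means, and triangles mark library 19, which lies in the range of the re-separated libraries for unnamed Muribaculaceae and unclassified Oscillospiraceae and above all of them for Bacteroides (6.81%).

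No genus of the mucus layer passed the test, and the most abundant of them had close means at both times. Helicobacter held 6.25%, 11.7%, 8.34%, 14.1% and 6.18% in co-housed mice and 9.48%, 7.10%, 8.30%, 10.6% and 6.82% after re-separation. The re-separated libraries lay within the co-housed range, and the log2 fold change of 0.02 ± 0.56 (SE; adjusted p = 0.993, edgeR) changed sign in 5 of 18 alternative settings. Without library 19 it was 0.46 (adjusted p = 0.625, edgeR). Mucispirillum averaged 2.82% ± 1.98 and 1.04% ± 0.839 (SD, n = 5), with library 20 highest at 5.77% and library 27 lowest at 0.166%. Its log2 fold change of -1.13 ± 0.84 (SE) had an adjusted p of 0.490. Akkermansia, a mucin degrader, had 0 reads in the 5 co-housed libraries and reads in 1 of the 5 re-separated libraries, where library 26 held 0.00679%. Candidatus Arthromitus, the segmented filamentous bacteria that attach to the ileal epithelium, averaged 0.0215% and 0.0219%. Of the 4 tested genera of this list 0 were called (edgeR; 0 had an unadjusted p under 0.05).

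Mycoplasma, which lives on host cells and mucosal surfaces, varied widely between mice at both times. It held 4.94%, 16.4%, 18.5%, 3.73% and 10.9% in co-housed mice and 9.18%, 2.65%, 11.2%, 14.5% and 6.42% after re-separation. The log2 fold change was -0.01 ± 0.66 (SE; adjusted p = 0.993, edgeR) and changed sign in 9 of 18 alternative settings. Ureaplasma, a relative that splits urea, averaged 0.202% ± 0.133 and 0.620% ± 0.369 (SD, n = 5), with a log2 fold change of 1.86 ± 0.89 (SE; adjusted p = 0.330, edgeR).

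Gastranaerophilales, non-photosynthetic relatives of cyanobacteria that live in the gut, had a higher mean share after re-separation, which passed or did not pass with the test used. They held 0.405%, 0.150%, 1.12%, 0.609% and 0.441% in co-housed mice and 0.625%, 1.80%, 3.21%, 1.90% and 8.21% after re-separation. Library 30 held more than all other libraries, and library 26 lay below library 18. The log2 fold change among genera was 2.70 ± 0.94 (SE), with an adjusted p of 0.131 (edgeR), and among families the adjusted p was 0.100. By DESeq2 it passed among genera (log2 fold change 3.20, adjusted p = 0.00904) and families (adjusted p = 0.0139). In edgeR it also passed at both levels when only the compared groups were fitted (adjusted p = 0.0241 and 0.00377), and among families with no filter (adjusted p = 0.0463) or without library 26 (adjusted p = 0.0389). Among 27 orders, a level chosen after the data were seen, 3 (11.1%) were called: Pseudomonadales was lower (3.7%), and Rhodospirillales and Gastranaerophilales were higher (7.41%). The Gastranaerophilales call (log2 fold change 2.97 ± 0.94, edgeR adjusted p = 0.0227) was lost without library 17, 20 or 30, with adjusted p-values of 0.0801, 0.0650 and 0.184, and with library-size scaling (edgeR adjusted p = 0.0913).

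Of the list of Proteobacteria with Desulfobacterota, 1 of 8 tested genera was called, against 1 of all 71 (1.41%). Both counts are the Pseudomonas described above. The list as a whole averaged 2.58% ± 0.685 and 2.91% ± 1.19 of reads (SD, n = 5). Its members lay on both sides. Parasutterella, an asaccharolytic gut commensal of the order Burkholderiales, held 0.443%, 0.409%, 0.181%, 1.23% and 0.287% in co-housed mice and 3.24%, 2.47%, 0.973%, 0.663% and 0.899% after re-separation. Without library 19 the groups did not overlap, and the log2 fold change moved from 1.83 ± 0.84 (SE; adjusted p = 0.299, edgeR) to 2.82 ± 0.91 (adjusted p = 0.0512). Bilophila, which reduces sulfite released from taurine, lay on the other side, with 0.144%, 0.0751%, 0.195%, 0.0344% and 0.0900% after co-housing. In the re-separated libraries it held 0.0109%, 0.0131%, 0.0213%, 0.00685% and 0 reads in library 30, where 3 counts would be 0.00756%. The groups did not overlap, and the log2 fold change of -2.98 ± 1.29 (SE) had an adjusted p of 0.296 (edgeR). Desulfovibrio, a sulfate reducer, averaged 0.435% and 0.260% and overlapped. Lactobacillus, the tested lactic acid genus, averaged 0.100% ± 0.0745 and 0.0856% ± 0.0224 (SD, n = 5), and was not called. Erysipelotrichales summed to 0.0240% and 0.0317%, with 0 of 3 tested genera called (edgeR; 0 had an unadjusted p under 0.05).

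Over whole communities, the split by time accounted for 28.2% of the variation in Bray-Curtis distances among the 10 WT libraries. The average split of 5 against 5 gives 11.1%. The split by time is also the split by library set, and their parts cannot be told apart. The exact permutation test over 126 splits gave p = 0.0714, and the smallest p it allows is 0.00794. Mean distances were 0.325 among co-housed libraries, 0.250 among re-separated libraries and 0.348 between the times. Without library 19, the split accounted for 51.5% (exact p = 0.0159), and the mean distance among co-housed libraries was 0.232. Library 19 was singled out by these same distances, so this p-value is descriptive only. On the Aitchison distance, which compares log ratios and so gives rare genera more weight, all 10 libraries gave 27.4% with an exact p of 0.00794. Rare genera include Pseudomonas and unclassified Rhodospirillales, each with 0 reads in a whole WT group, and their part in this value was not tested. Within-sample diversity of genera did not pass the test. At 10491 reads the expected number of genera was 58.4 ± 2.53 and 60.0 ± 1.92 (SD, n = 5, exact two-sided permutation p = 0.333). Shannon indices averaged 2.73 ± 0.181 and 2.63 ± 0.157 (exact p = 0.397), and the inverse Simpson index 9.57 ± 1.90 and 8.77 ± 2.25 (exact p = 0.548). Each of these 3 measures had an adjusted p of 0.548. Counted over families, richness was higher by 1.41 after re-separation (exact permutation p = 0.0397, not adjusted), and the Shannon and inverse Simpson indices were higher by 0.0366 and 0.546, where those of genera were lower. Without library 19 the differences over genera were 0.587 for richness, -0.174 for Shannon (exact permutation p = 0.0873) and -1.56 for inverse Simpson.

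The main orders were also set against each other. The log2 ratio of Bacteroidales to the sum of Lachnospirales and Oscillospirales averaged 0.32 ± 1.49 after co-housing and 2.13 ± 0.956 after re-separation (SD, n = 5). Library 19 had the highest co-housed ratio, 2.86, and without it the co-housed mean was -0.32 ± 0.499 (SD, n = 4), so its sign rested on that library. The other co-housed libraries, at -0.71 to 0.35, lay below the re-separated ones, at 0.95 to 3.29. It had been 4.43 ± 0.721 in WT libraries at weaning, which share the library set of the co-housed ones. At weaning Bacteroidales held 76.3% ± 6.08 of reads in WT mice, Lachnospirales 2.88% ± 1.31 and Oscillospirales 0.943% ± 0.496. The re-separated means of 56.6%, 10.6% and 3.11% thus lay between those at weaning and after co-housing, with or without library 19. The weaning mice were younger and not yet co-housed, and no test was made of this order.

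Variants cannot be matched between the sets, but their number and dominance within a genus can be set side by side. Prevotellaceae UCG-001 was led by a single variant in every mouse, row 22 of the table with 97.6% of the genus after co-housing and row 615 with 96.6% after re-separation. Mycoplasma was also nearly 1 variant at each time. Muribaculaceae without a genus name was spread over 49 variants after co-housing, 21 of them in 5 of 5 libraries, and over 57 after re-separation, 38 of them in 5 of 5. The variant counts were not set at 1 depth, and the whole family had 14737 reads in the co-housed and 53921 in the re-separated WT libraries. Helicobacter was led by row 151 in 4 of 5 co-housed libraries, with a mean of 58.0% of the genus, and in library 19 by row 153. After re-separation row 836 led in 5 of 5 libraries with 86.0%. The effective number of Helicobacter variants was 2.05 ± 0.153 and 1.34 ± 0.201 (SD, n = 5). Parabacteroides was 1 variant after co-housing and 4 after re-separation. How far depth and the separate handling of the sets bear on these numbers was not tested.

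In Mucispirillum, single mice carried 1 of 2 alternative variants at each time. The leading variant also differed between mice in other genera, such as Bacteroides, with 3 different leading variants at each time. After co-housing, row 146 made up 98.3% of the genus in library 16 and 100% in library 19 and had 0 reads in libraries 17, 18 and 20. Row 147 made up 97.1%, 98.2% and 98.8% in those 3 libraries and had 0 reads in the former. After re-separation, row 825 made up 96.6% and 99.8% in libraries 26 and 28, and row 826 made up 97.4%, 98.6% and 97.4% in libraries 27, 29 and 30, again with 0 reads of the other. A minor variant held the rest, up to 2.95% after co-housing and up to 3.42% after re-separation. The labels do not say which mice shared a cage, so whether cage mates carried the same variant was not analysed here.

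The same step was then compared with that of KO mice, which also left mixed cages and changed between the same library sets. Whether the sampled WT and KO mice had shared cages is not among the labels, and the test treats them as independent. In KO mice 15 of 71 genera (21.1%) were called, 11 higher (15.5%) and 4 lower (5.63%) after re-separation (edgeR). Leaving out 1 KO library gave 5 to 15 such genera, with 6, 6, 5, 8 and 9 when library 12, 13, 21, 22 or 24 was left out. The difference between the WT and the KO change was tested directly, and 0 of 71 genera (0%) passed (edgeR; 5, or 7.04%, had an unadjusted p under 0.05). These 5, all with the lower change in WT mice, were unnamed Muribaculaceae, Marvinbryantia, RF39, Lachnospiraceae UCG-004 and the [Eubacterium] siraeum group. DESeq2 called 1 genus, the [Eubacterium] siraeum group, which had 0 reads in the co-housed KO libraries, and limma-voom called 0. The smallest adjusted p in edgeR was 0.226. Of the 15 genera called in KO mice, 13 had the same sign in WT mice and 1, Pseudomonas, was called in both. Across 70 genera, which are not independent and share the change of library set and the fit, the log2 fold changes of the genotypes had a Pearson r of 0.70, with the same sign for 60.

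Single genera show how the genotypes compared. Unnamed Muribaculaceae had a log2 fold change of 2.56 in KO mice, where it passed, and of 0.88 in WT mice. Bacteroides had 1.96 in KO mice, where it passed, and 0.51 in WT mice. Parabacteroides had 3.76 and 2.10, and unclassified Oscillospiraceae -2.51 and -1.95, and both passed in KO but not in WT mice. The Lachnospiraceae NK4A136 group had -1.56 in KO and -0.76 in WT mice and passed in neither. For none of them did the difference between the genotypes pass the test. The split by time and library set accounted for 50.3% of the variation in Bray-Curtis distances in KO mice (exact permutation p = 0.00794). In WT mice it accounted for 28.2%, and the difference between these values was not tested. Bacteroidales averaged 28.0% and 59.5% in KO mice, and the order ratio -0.16 and 2.93.

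**Figure D4:**
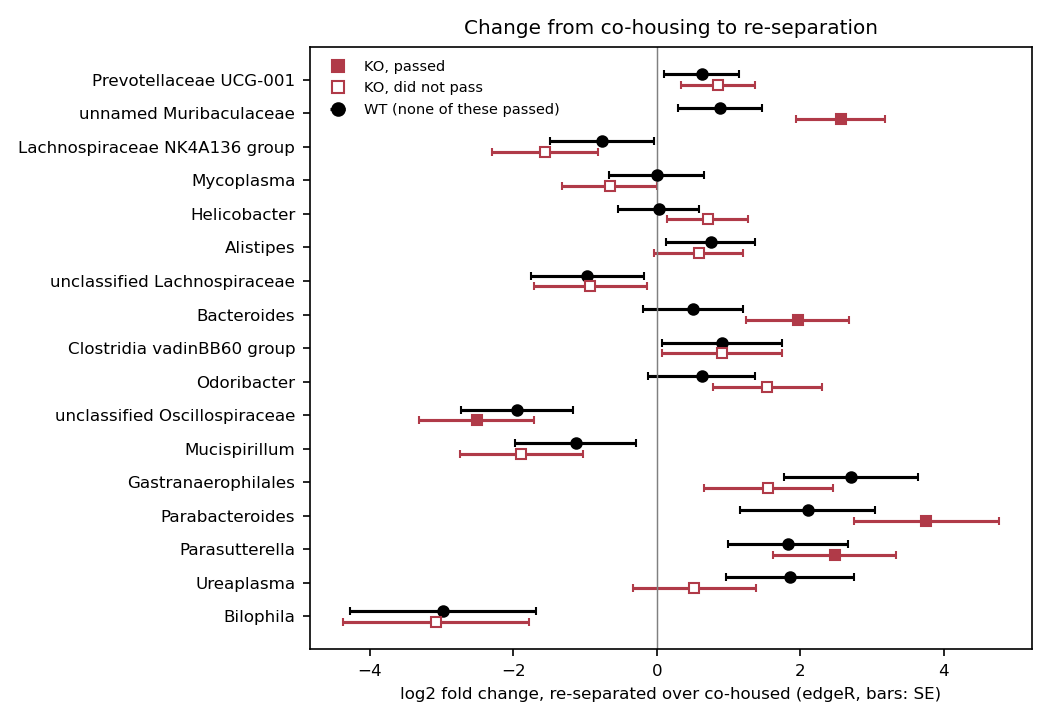
Log2 fold change from co-housing to re-separation (edgeR, bars are SE) for named genera and for genera with an unadjusted p under 0.05 in WT mice and reads in both WT groups. Black points are WT and squares KO, filled where the KO change passed. WT and KO points lie on the same side of 0 for every genus drawn, with Helicobacter (0.02) and Mycoplasma (-0.01) near 0 in WT mice, where their sign changed with the setting.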

How the data were processed

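Counts of reads per sequence variant were deposited by the authors as whole numbers, not normalized, with a taxon name per row. Per the labels' protocols, DNA was purified on columns, V4 was amplified and the product was sequenced from both ends on a MiSeq. R 4.5.1 and limma appear, with no role stated, in the submitters' processing notes. Sources used here do not give the denoising settings, the taxonomic reference or filters. All 30 columns of counts were used. The 4 mitochondrial rows with reads were left out, and rows were summed by genus and family, or by the lowest name above.

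Counts were tested with edgeR 4.0.16 (R 4.3.3; TMMwsp, glmQLFit with robust estimation, 1 coefficient per group over all 30 libraries, at least 10 reads in 3 libraries) and Benjamini-Hochberg adjustment at 0.05. The test was checked on simulated counts, drawn with the same mean shares in all groups except for changes imposed in the re-separated WT group. That check did not model genera absent from a whole library set, such as Pseudomonas. DESeq2 1.42.0 and limma 3.58.1 (voom), other scalings, thinning and leaving out libraries were alternatives. Log2 fold changes carry standard errors. Single values were compared by exact two-sided permutation over 252 orderings, with Python 3.11.15, scipy 1.17.1 and pandas 2.3.3. PCR reads are not independent molecules, so floors of 3 counts cover counting error only. Within the WT groups the 20 library pairs differed by a chi-square of 30.9 to 97.0 per degree of freedom, so no such pair had counts equal within sampling noise. Pairs across the sets share no variant and were compared by genus distances only. Named genera are those called in WT mice or in the test of the difference between genotypes, and the 12 with the largest mean share; others with an unadjusted p under 0.05 or in lists are named with their values. The members and lists were chosen with earlier results of these data known.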

Additional observations from a re-analysis of the deposited data

Results flagged for a closer look

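Of 50 groups of 5 values examined, 6 held a value far from the other 4, and chance gives about 1 in 20. In the co-housed WT group, library 19 was the highest for unnamed Muribaculaceae (25.5%, next 9.23%), for Bacteroides (6.81%, next 1.84%) and for all Bacteroidales (66.4%, next 34.1%). It was also the lowest for the Shannon index of genera (2.41, next 2.76). These 4 values come from 1 library and are not independent of each other. In the re-separated WT group, library 29 was the highest for unclassified Oscillospiraceae (1.20%, next 0.711%) and for Oscillospirales (4.92%, next 3.00%), of which the former is a part.

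Mitochondrial reads, which no comparison used, had a mean share of 0.608% of reads in the co-housed and 0.161% in the re-separated WT libraries.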

How the results depend on the processing

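No paired analysis was possible because the labels number the libraries 1 to 30 without repeats, so the WT groups share no replicate number. Called genera numbered 1 in the main setting, 2 with DESeq2 size factors in edgeR, 3 with DESeq2, 3 with limma-voom and 6 when only the compared groups were fitted (those 6 were Bilophila, Gastranaerophilales, Parabacteroides, Pseudomonas, unclassified Oscillospiraceae and unclassified Rhodospirillales). Leaving out each library gave 1 to 1, and Pseudomonas was called in all 18 alternatives. Called families numbered 2, 5 with only the compared groups and 1 after thinning. Leaving out each library gave 2 to 5, with 5 without library 19, as also for orders in place of families, an alternative chosen after seeing the data. Genera whose change differed between genotypes numbered 0, and 1 with DESeq2, 1 with no filter on low counts ([Eubacterium] siraeum group in both) and 0 to 1 on leaving out libraries (RF39 without KO library 15). KO genera called numbered 15 and 8 with library-size scaling. The median log2 fold change of all genera in WT mice, -0.27, shifted by -0.34 with library-size scaling, 0.49 with DESeq2 size factors and 0.30 with limma-voom. The share of community distance that went with time and library set together was 26.8% on presence or absence (exact p = 0.0159). It was 27.4% on Aitchison distances (exact p = 0.00794) and 23.4% to 51.5% on leaving out libraries. With families in place of genera, richness was higher by 1.41 after re-separation (exact p = 0.0397), and the differences of the Shannon (0.0366) and inverse Simpson (0.546) indices turned positive, where genera gave -0.0953 and -0.806. Leaving out libraries gave 0.587 to 2.32 genera for richness, -0.174 to -0.0473 for Shannon and -1.56 to -0.237 for inverse Simpson. The difference of the log2 ratio of Bacteroidales to both orders of Clostridia, 1.82, was 2.45 without library 19, an alternative also chosen after seeing the data. Of the 13 named genera, all but Mycoplasma and Helicobacter kept the sign of their log2 fold change in 18 alternatives. The causes of these changes were not tested. Depth limits statements on genera near 3 counts per library.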

Other observations

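Less abundant genera, chosen after their values were seen, also differed between mice. None of them was called by edgeR. Quinella, a relative of Selenomonas, averaged 1.85% ± 0.762 of bacterial reads in co-housed and 0.652% ± 0.420 in re-separated WT libraries (SD, n = 5), and library 19, at 0.560%, again lay with the latter. The Rikenellaceae RC9 gut group averaged 0.440% ± 0.296 and 1.19% ± 0.673. Alloprevotella ranged from 0.0762% to 1.94% and from 0.596% to 4.59%, with the highest co-housed value in library 19 and the highest re-separated value in library 27, the library with the most Bacteroidales.

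Some genera were present in some mice only. The [Eubacterium] siraeum group had 0 reads in co-housed libraries 16, 17 and 18, 0.226% in library 19 and 1.93% in library 20, and was found in all 5 re-separated libraries at 0.102% to 0.622%. Its mean of 0.431% after co-housing therefore rested on library 20. Brachyspira, a spirochaete, had 0 reads in libraries 16, 19 and 20, 0.193% and 0.287% in libraries 17 and 18, and 0 to 0.177% after re-separation, with 0 reads in library 28. Each value of 0 allows up to 3 counts.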
